A study of Mus musculus with 4 samples.

Results

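Gluconeogenesis, the making of glucose from lactate, glycerol and amino acids, and the FOXO1 signalling axis that controls it were examined through 10 genes chosen by name, which were all found among the 13903 genes measured. They comprised 4 enzymes (Pck1, G6pc, Fbp1 and Pcx), the glucose-6-phosphate transporter Slc37a4, the transcription factors Foxo1 and Foxo3, their coactivator Ppargc1a, the insulin receptor Insr and its adaptor Irs2. RNA was measured by bulk mRNA-seq in liver of OGT-Floxed C57BL/6J mice, all on a CDE diet (choline-deficient and supplemented with ethionine, which injures hepatocytes and provokes a ductular reaction). The virus given was AAV8-TBG-CRE for the label OGT-KO and AAV8-TBG-eGFP for the label control, and tissue was collected either without recovery from the diet or 7 days into recovery. Each of these 4 conditions was 1 library of RNA pooled equally from 3 mice, which leaves the values without replicate error, and no test between conditions was made. Every group carried the floxed allele and a virus, and the control virus made a fluorescent protein in place of Cre. The TBG promoter is active in hepatocytes, so RNA from other liver cells came from cells in which Cre was not expected. Age, sex, time on the diet and whether the mice had been fasted before collection are not given in the sources used here.

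Hepatocytes take up lactate and alanine, convert them to pyruvate and carry pyruvate back to glucose through 4 dedicated steps: pyruvate carboxylase (Pcx), phosphoenolpyruvate carboxykinase (Pck1), fructose-1,6-bisphosphatase (Fbp1) and glucose-6-phosphatase (G6pc). The last step takes place inside the endoplasmic reticulum, and Slc37a4 carries glucose-6-phosphate there. In the fasted state glucagon, through cAMP, raises transcription of Pck1, G6pc and the coactivator Ppargc1a. In the fed state insulin acts through Insr, Irs2 and the kinase AKT, which phosphorylates FOXO1 so that it leaves the nucleus, and FOXO targets such as G6pc, Igfbp1 and Irs2 then fall. FOXO activity is therefore set largely by phosphorylation and location of the protein, neither of which an mRNA level shows. OGT, the enzyme whose gene was targeted, attaches O-GlcNAc sugars to proteins, FOXO1 among them.

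The promoters of 9 of the 10 genes were found in the RefSeq table for GRCm38.p6, and 250 bases before each start site were searched on both strands for 4 short motifs. These were GTAAACA (the core of a FOXO element), CAAAACA (the core of an insulin response element), TGACG (a core of cAMP response elements) and AAAGTCC (the core of an HNF4 element). Among 32851 mouse promoter windows of this length, they were found in 3.17%, 5.56%, 17.8% and 3.58%. At least 1 motif was found in 6 of the 9 genes, but the share of all promoters with any of the 4 was not computed. Pcx and Slc37a4 were searched in more than 1 window. CAAAACA was found in G6pc, at position -174 from the start site, and in Irs2, at -37, and TGACG was found in Pck1 at -90, Foxo3 at -64, Ppargc1a at -49 and 2 of the 3 promoters listed for Slc37a4. GTAAACA was found in none of them. The windows of 4 genes are shown because their genes carry the contrast described below, G6pc and Pck1 being low, and Igfbp1 high, in the libraries labelled OGT-KO, while Irs2 is the insulin adaptor with the same motif as G6pc. They lie at chr2:173152823-173153072 on the plus strand (Pck1), chr11:101367466-101367715 on the plus strand (G6pc), chr8:11008930-11009179 on the minus strand (Irs2) and chr11:7197537-7197786 on the plus strand (Igfbp1), and are given 5′ to 3′ along the gene with motif matches in capitals. The matches in Pck1, G6pc and Irs2 and the AAAGTCC of Igfbp1, at -209, are read on the opposite strand, whereas CAAAACA of Igfbp1, at -108, is on the printed strand.
Pck1: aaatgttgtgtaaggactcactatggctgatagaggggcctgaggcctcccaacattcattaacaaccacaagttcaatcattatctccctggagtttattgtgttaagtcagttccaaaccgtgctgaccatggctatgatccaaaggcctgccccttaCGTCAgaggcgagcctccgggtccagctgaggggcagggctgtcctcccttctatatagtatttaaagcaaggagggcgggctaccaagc
G6pc: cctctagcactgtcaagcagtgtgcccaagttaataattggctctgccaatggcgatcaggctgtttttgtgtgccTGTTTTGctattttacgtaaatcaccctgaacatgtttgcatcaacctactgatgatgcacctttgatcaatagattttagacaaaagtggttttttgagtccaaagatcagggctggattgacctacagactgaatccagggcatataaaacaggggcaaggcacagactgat
Irs2: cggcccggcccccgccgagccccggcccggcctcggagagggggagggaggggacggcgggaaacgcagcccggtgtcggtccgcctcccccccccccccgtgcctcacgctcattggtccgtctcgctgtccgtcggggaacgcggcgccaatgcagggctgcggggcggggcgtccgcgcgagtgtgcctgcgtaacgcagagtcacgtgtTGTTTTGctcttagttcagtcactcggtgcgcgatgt
Igfbp1: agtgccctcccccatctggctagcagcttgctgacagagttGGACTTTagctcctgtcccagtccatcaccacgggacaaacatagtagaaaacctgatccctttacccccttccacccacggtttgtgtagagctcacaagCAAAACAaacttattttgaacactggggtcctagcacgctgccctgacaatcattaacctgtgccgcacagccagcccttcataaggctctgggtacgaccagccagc
A match of 5 or 7 letters describes the sequence and is not evidence that a factor was bound there.

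Levels are given as CPM, reads per 1000000 reads on the listed genes, of which each library held 19972699 to 22866431, and 3 reads correspond to 0.131 to 0.150 CPM. The 95% intervals are exact and cover counting error only. The targeted gene was read first, as a check of the labels. Ogt had 64.7 CPM in the control library and 55.3 in the no-recovery library labelled OGT-KO, a ratio of control to OGT-KO of 1.17 (1.08 to 1.26). After 7 days it had 55.7 in the control library and 77.7 in the library labelled OGT-KO, which was 1.40-fold higher (1.29 to 1.51) at this scaling. With the median-ratio scaling described below, Ogt had a log2 difference, labelled OGT-KO minus control, of -0.93 with no recovery and -0.20 after 7 days. The direction at 7 days thus depended on the scaling, and whether these reads cover the deleted exons cannot be read from a gene total, so the groups are called by their labels.

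Markers of several cell types differed between the labels. In the order control and labelled OGT-KO with no recovery, then control and labelled OGT-KO after 7 days, the 6 hepatocyte markers summed to 70276, 52176, 77949 and 63296 CPM, and the 5 bile duct markers to 53.7, 1148, 69.6 and 1457 CPM. The 5 stellate cell and myofibroblast markers summed to 53.2, 1124, 39.6 and 1449 CPM, and the 4 macrophage markers to 105, 303, 38.1 and 206 CPM. The 4 endothelial markers summed to 143, 224, 103 and 165 CPM, lymphocyte and neutrophil markers reached no more than 3.76 and 12.8 CPM in any library, and no adipocyte marker was in the table. Marker sets of periportal and of perivenous hepatocytes were 3.81- to 5.08-fold lower in sum in the libraries labelled OGT-KO. The sum of the general hepatocyte markers was 1.35-fold (no recovery) and 1.23-fold (7 days) lower, and 5 of 6 (not Tat) were lower in each arm. Such sums mostly follow their most abundant genes, so they do not show that zonal markers differed more than general ones. In control and labelled OGT-KO with no recovery, Alb had 47845 and 41362 CPM, but Serpina1a had 2498 and 532. Among perivenous markers, Cyp2e1 had 5235 and 586 CPM there, but Cyp1a2 had 754 and 565. No marker in the table was at 0 in any library. The part that these shifts played in the values below was not tested, and fewer hepatocytes and less RNA per hepatocyte cannot be told apart in bulk liver.

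Compared per kilobase of transcript, so that genes could be set against each other, the 5 genes of glucose production led in the control library with no recovery, Pck1 at 1034 CPM per kilobase, Fbp1 at 515, G6pc at 132, Pcx at 123 and Slc37a4 at 44.4. The signalling genes were far below them on this scale, with Insr at 11.1, Foxo3 at 7.67, Foxo1 at 4.71, Irs2 at 4.20 and Ppargc1a at 1.08. In the no-recovery library labelled OGT-KO the order changed at a single place among the 5, since G6pc (25.0) stood below Pcx (106) and close to Slc37a4 (19.9), while Pck1 (551) and Fbp1 (153) remained the highest. After 7 days the control library had Pck1 at 576, Fbp1 at 465, Pcx at 114, G6pc at 64.8 and Slc37a4 at 50.3 CPM per kilobase, and the library labelled OGT-KO had 329, 289, 90.3, 34.3 and 18.0 for the same genes in this order.

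**Figure D1:**
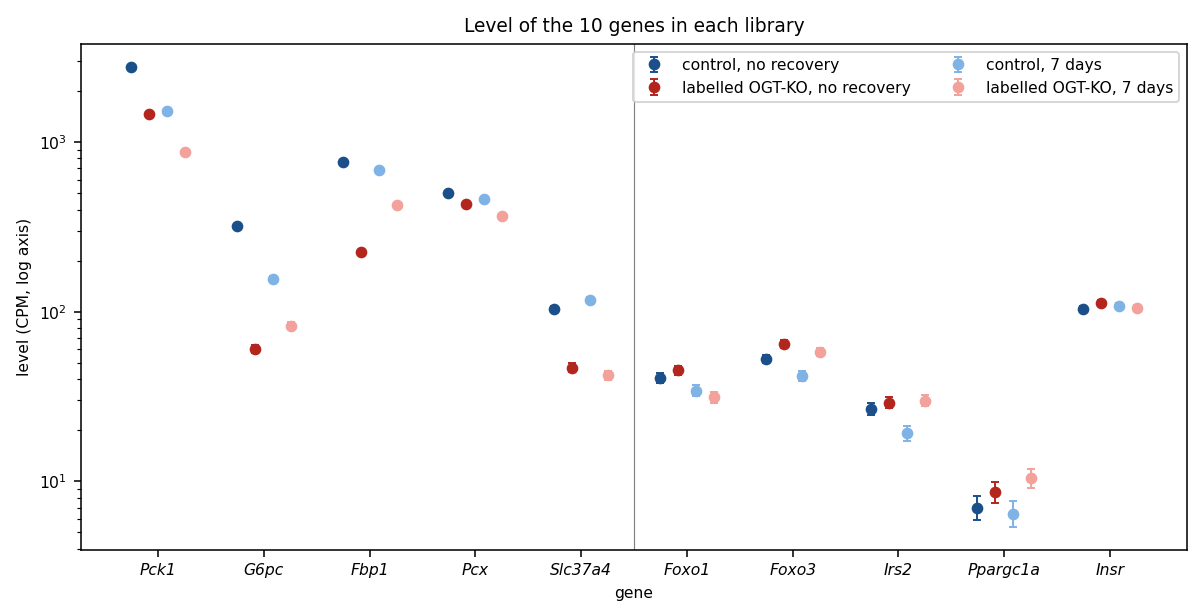
Level of each of the 10 genes in CPM (vertical log axis) in the 4 libraries, with exact 95% counting intervals as bars, and glucose production genes left of the line. All 5 of these genes are lower in both libraries labelled OGT-KO than in the control library of the same arm, G6pc from 318 to 60.4 CPM with no recovery. Foxo1, Foxo3, Irs2, Ppargc1a and Insr differ by less than 2-fold over the 4 libraries, as does Pcx. CPM is not corrected for transcript length.

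All 5 genes of glucose production had lower levels under the label OGT-KO than in control liver in both arms. By 2-fold or more, 3 of these 5 were lower with no recovery and 1 after 7 days, and none of the signalling genes differed. With no recovery G6pc, Fbp1 and Slc37a4 differed most, whereas after 7 days Slc37a4 did (-1.46), ahead of G6pc (-0.91), Pck1 (-0.81) and Fbp1 (-0.69). Differences are on the scale of log2(CPM + 1), labelled OGT-KO minus control, and a gene was called at a 2-fold difference (1 on this scale) among the 8963 genes whose mean over the libraries was 10 CPM or more, which 9 of the 10 genes reached. With no recovery 3 of the 9 were called lower and 0 higher, against 5.69% of all compared genes called lower and 24.4% higher. After 7 days 1 was called lower and 0 higher, against backgrounds of 4.27% lower and 22.9% higher. The median over the 9 genes was -0.21 (no recovery) and -0.34 (7 days), whereas that of all compared genes was 0.51 and 0.48. At the deposited scaling to equal totals, most genes thus stood higher under the label OGT-KO. The 100 highest genes took 42.8% and 45.0% of control reads and 34.1% and 34.3% of reads labelled OGT-KO. Scaled by the median ratio instead, the median gene stood at -0.19 and -0.18, the 5 genes of glucose production kept their direction, and 4 (no recovery) and 5 (7 days) of the 9 genes were called lower. The background rose too: 1381 and 1055 of all compared genes were called lower at that scaling, against 510 and 383 at equal totals. Of all genes called, 81.1% and 84.3% stood higher under the label OGT-KO at equal totals, against 40.4% and 49.6% with median-ratio scaling.

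G6pc (ENSMUSG00000078650), which releases free glucose from glucose-6-phosphate and so completes both gluconeogenesis and glycogen breakdown, had 318 CPM in the control library and 60.4 in the no-recovery library labelled OGT-KO. This was a 5.27-fold lower level (4.97 to 5.59), a log2 difference of -2.38, and 1.31% of the compared genes lay further down. After 7 days it had 156 CPM in control liver and 82.7 in liver labelled OGT-KO, 1.89-fold lower (1.79 to 2.00) and not called. The difference on the log2 scale had narrowed from -2.38 to -0.91, with no test of that change.

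Fbp1 (ENSMUSG00000069805), which removes the phosphate from fructose-1,6-bisphosphate against the direction of glycolysis, was also low with no recovery. Its level with no recovery was 762 CPM in the control library and 226 in the library labelled OGT-KO, 3.37-fold lower (3.26 to 3.48). After 7 days the levels were 688 and 427 CPM, 1.61-fold lower (1.57 to 1.65) and not called.

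Slc37a4 (ENSMUSG00000032114), which supplies glucose-6-phosphatase with its substrate, was the single gene of the 10 called lower in both arms at the deposited scaling, as were 3.74% of all compared genes. With median-ratio scaling G6pc (-3.09 and -1.59), Fbp1 (-2.46 and -1.37) and Pck1 (-1.63 and -1.49) passed 2-fold in both arms as well. The share of all compared genes that did so at that scaling is not given here. Slc37a4 had 104 CPM in the control library and 46.7 in the no-recovery library labelled OGT-KO, 2.23-fold lower (2.07 to 2.40). After 7 days it had 118 and 42.1 CPM, 2.80-fold lower (2.59 to 3.02). Unlike G6pc and Fbp1, its difference between the labels was therefore no smaller after recovery, at -1.14 and -1.46 on the log2 scale. The 3 genes with profiles nearest to it over the 4 libraries, by Euclidean distance between centred log2 levels, were Slc38a3 at 0.108, Klf9 at 0.111 and Cyp2c37 at 0.120. Slc38a3, a glutamine transporter, had 1592 CPM in control and 743 in liver labelled OGT-KO with no recovery, and 1849 and 722 CPM after 7 days.

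Pck1 (ENSMUSG00000027513), which makes phosphoenolpyruvate in the cytosol, was the most abundant of the 10 and did not reach the 2-fold limit in either arm. It had 2751 CPM in the control library and 1466 in the no-recovery library labelled OGT-KO, 1.88-fold lower (1.85 to 1.90), and 1533 and 876 CPM after 7 days, 1.75-fold lower (1.72 to 1.78). Relative to the median gene the differences were -1.42 and -1.29 on the log2 scale. Pcx (ENSMUSG00000024892), the mitochondrial enzyme of the first step, differed least of the 5, with 499.7 CPM in control and 432 in liver labelled OGT-KO with no recovery (ratio of control to OGT-KO 1.16, 1.13 to 1.19), and 463 and 367 CPM after 7 days (1.26, 1.23 to 1.30).

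Unequal change within the pathway was also visible inside each library, where no scaling between libraries enters. These ratios were chosen after the values had been seen. Reads of Fbp1 per read of Pcx were 1.52 in control and 0.523 in liver labelled OGT-KO with no recovery, and 1.49 and 1.16 after 7 days. Reads of Pck1 per read of G6pc were 8.64 in control and 24.3 (23.0 to 25.6) in liver labelled OGT-KO with no recovery, but 9.80 and 10.6 after 7 days. The no-recovery library labelled OGT-KO stood apart from the other 3 in these ratios. In others it did not. In the order control and labelled OGT-KO with no recovery, then after 7 days, reads of Pck1 per read of Pcx were 5.50, 3.39, 3.31 and 2.39, and reads of G6pc per read of Slc37a4 were 3.06, 1.30, 1.33 and 1.96, where the control library with no recovery was the highest. Summed over the 5 genes, the level was 4435 CPM in control and 2231 in liver labelled OGT-KO with no recovery, and 2959 and 1795 CPM after 7 days.

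**Figure D2:**
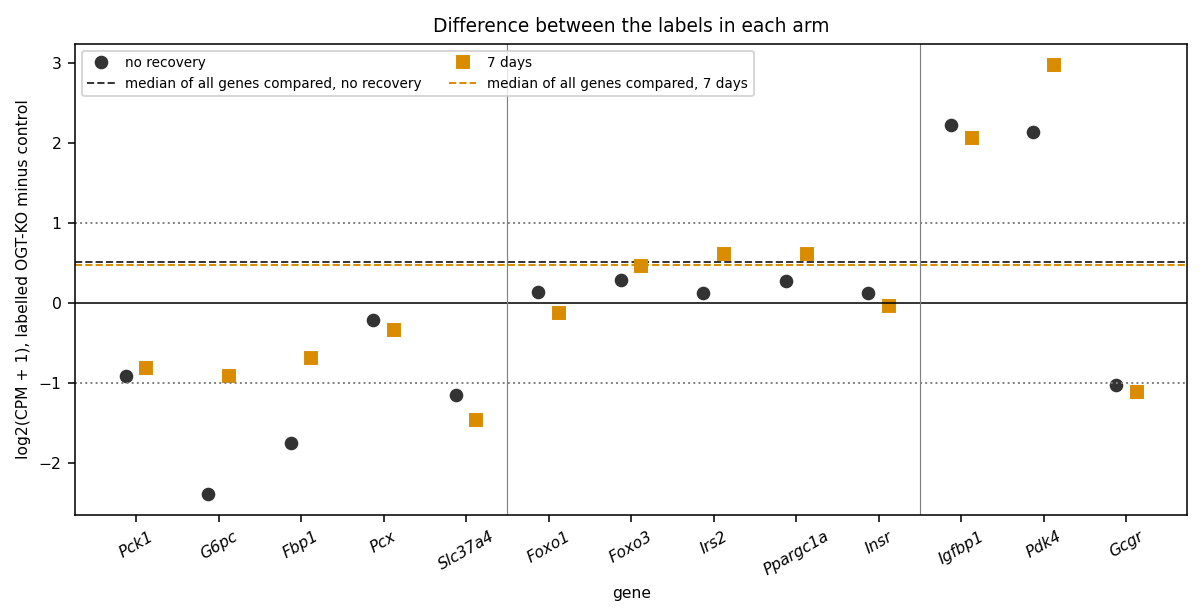
Difference of log2(CPM + 1), labelled OGT-KO minus control, for the 10 genes and 3 genes of the same axis (right), with no recovery (circles) and after 7 days (squares). Dotted lines mark 2-fold and dashed lines the median of all compared genes (0.51 and 0.48). Glucose production genes and Gcgr lie below 0 and Igfbp1 and Pdk4 above 2. Foxo1, Foxo3, Irs2, Ppargc1a and Insr lie within the 2-fold lines in both arms, as do Pck1 and Pcx. The signs of Foxo1, Foxo3, Irs2 and Insr depend on the scaling with no recovery, and those of Foxo3 and Irs2 also after 7 days. Each point compares 1 library with 1 library.

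None of the factors, the receptor or the adaptor was called in either arm. Foxo1 (ENSMUSG00000044167), the main hepatic FOXO factor, had 40.8 CPM in control and 45.0 in liver labelled OGT-KO with no recovery (a ratio of 1.10, 1.01 to 1.21), and 34.1 and 31.4 CPM after 7 days (0.919, 0.826 to 1.02). Foxo3 (ENSMUSG00000048756), its close relative, had 52.5 and 64.3 CPM with no recovery and 41.8 and 57.9 CPM after 7 days, ratios of 1.22 (1.13 to 1.32) and 1.39 (1.27 to 1.51). Both FOXO factors thus differed between the labels by less than 2-fold, while G6pc differed 5.27-fold with no recovery.

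Insr (ENSMUSG00000005534), the receptor through which insulin acts, had 103.7 CPM in control and 113 in liver labelled OGT-KO with no recovery and 108 and 105 CPM after 7 days, so that the 4 libraries ranged from 103.7 to 113 CPM. Irs2 (ENSMUSG00000038894), the adaptor induced by FOXO factors in fasting, had 26.6 and 29.0 CPM with no recovery (1.09, 0.975 to 1.22) and 19.3 and 29.9 CPM after 7 days (1.55, 1.37 to 1.76). Its control library at 7 days was the lowest of the 4 and the other 3 were close together. Ppargc1a (ENSMUSG00000029167), which coactivates FOXO1 and HNF4A at gluconeogenic genes, had a mean below 10 CPM and was not compared. It had 6.96 and 8.62 CPM with no recovery and 6.46 and 10.4 CPM after 7 days, from 129 to 235 reads in a library, with ratios of 1.24 (0.995 to 1.54) and 1.61 (1.30 to 2.01).

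Several of these differences changed sign with the scaling. With median-ratio scaling the log2 difference with no recovery went from 0.14 to -0.56 for Foxo1, from 0.29 to -0.42 for Foxo3, from 0.12 to -0.57 for Irs2 and from 0.12 to -0.59 for Insr, and after 7 days it went from 0.46 to -0.21 for Foxo3 and from 0.61 to -0.05 for Irs2. After 7 days Foxo1 (-0.12 and -0.78) and Insr (-0.04 and -0.72) were below 0 under both scalings. All of these differences were short of 2-fold. In the GENCODE M21 annotation 674 of the 8665 exonic bases of Foxo1 and 162 of the 6323 of Irs2 also lie in exons of antisense genes, whose reads cannot be told apart without strand, and whether strand was used in counting is not given in the sources used here. The exons of the other 8 genes overlap no other gene there.

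**Figure D3:**
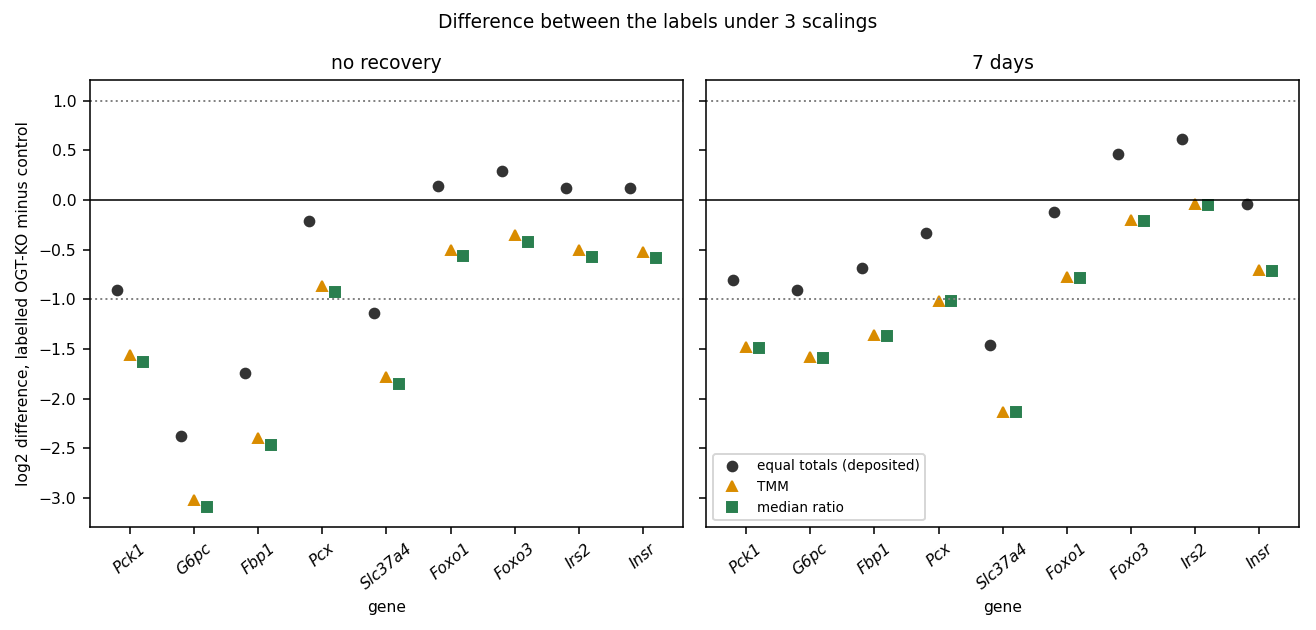
Log2 difference between the labels, labelled OGT-KO minus control, for the 9 compared genes under the deposited equal totals (circles), TMM (triangles) and median-ratio scaling (squares), with dotted lines at 2-fold. The 5 glucose production genes lie below 0 under all 3 scalings in both arms, and the points of Foxo1, Foxo3, Irs2 and Insr with no recovery, and of Foxo3 and Irs2 after 7 days, cross from above to below 0.

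Recovery was compared within each label. Pck1 had 2751 CPM in control liver with no recovery and 1533 after 7 days, 1.79-fold lower (1.77 to 1.82), and 1466 and 876 CPM in liver labelled OGT-KO, 1.67-fold lower (1.64 to 1.70). Neither reached 2-fold, but 1.55% and 1.23% of the compared genes lay further down. Few of the compared genes were called between the arms, 0.96% lower in control liver and 0.435% in liver labelled OGT-KO, with 0.245% and 1.04% higher. Of the 9 compared genes, 1 was called lower in control liver and 0 in liver labelled OGT-KO, and 0 were called higher under either label.

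The gene called was G6pc, which fell from 318 to 156 CPM in control liver, 2.04-fold (1.95 to 2.12). At -1.02 on the log2 scale it was close to the limit, and with either other scaling it did not reach it (-0.98 under median-ratio scaling). In liver labelled OGT-KO its level was 60.4 CPM with no recovery and 82.7 after 7 days, 1.37-fold higher (1.28 to 1.47). The opposite directions brought the 2 labels closer together, mainly through the lower control value. Fbp1 was 762 and 688 CPM in control liver and 226 and 427 in liver labelled OGT-KO, 1.89-fold higher after 7 days (1.83 to 1.95), so its narrowing came mainly from the library labelled OGT-KO. Slc37a4 (104 to 118 CPM in control, 46.7 to 42.1 in liver labelled OGT-KO) and Pcx differed by at most 1.18-fold between the arms under either label.

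**Figure D4:**
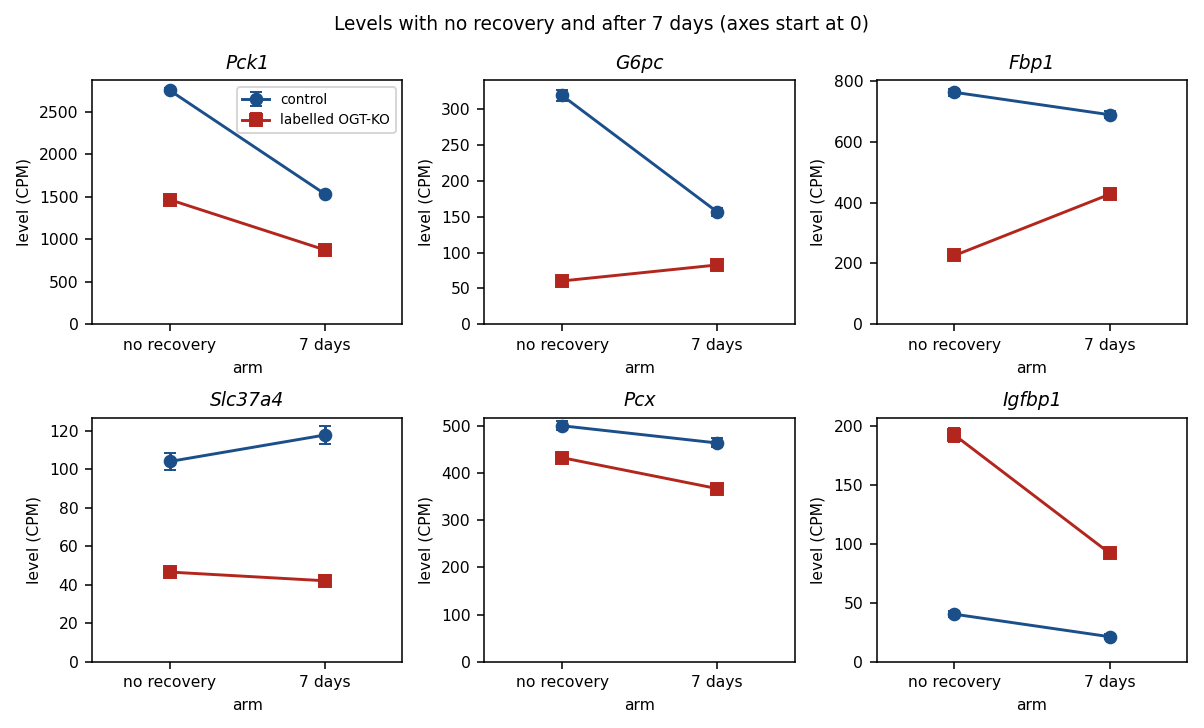
Levels in CPM with no recovery and after 7 days in control libraries (circles) and libraries labelled OGT-KO (squares), on axes that start at 0, with exact 95% counting intervals as bars. The lines for G6pc and Fbp1 approach each other, from 318 and 60.4 to 156 and 82.7 CPM for G6pc, those for Slc37a4 separate slightly, and Igfbp1 lies higher in the libraries labelled OGT-KO in both arms.

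Among the signalling genes, Foxo1 had 1.19-fold (control) and 1.43-fold (1.30 to 1.58, labelled OGT-KO) lower levels after 7 days, neither called. Irs2 had a 1.38-fold (1.21 to 1.57) lower level after 7 days in control liver and 29.0 and 29.9 CPM in liver labelled OGT-KO. The differences between the recoveries of the 2 labels were not tested. Insr differed by at most 1.07-fold under either label.

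Igfbp1 and Pdk4, FOXO targets outside gluconeogenesis, stood higher under the label OGT-KO. Igfbp1, a secreted binding protein for insulin-like growth factors that is a classical liver target of FOXO1 and is repressed by insulin, had 40.4 CPM in control and 192 in liver labelled OGT-KO with no recovery, 4.76-fold higher (4.43 to 5.13), and 21.3 and 92.1 CPM after 7 days, 4.33-fold higher (3.90 to 4.82). Pdk4, a kinase that holds pyruvate back from oxidation in fasting, had 5.50 and 27.5 CPM with no recovery and 3.45 and 33.9 CPM after 7 days, 4.99-fold (4.09 to 6.13) and 9.80-fold (7.65 to 12.7) higher. Igfbp1 and G6pc, whose promoters printed above both hold CAAAACA, thus differed in opposite directions between the labels with no recovery, and by value after 7 days. Reads of Igfbp1 per read of G6pc were 0.127 and 0.136 in the control libraries, against 3.18 (2.99 to 3.38) and 1.11 (1.05 to 1.19) in those labelled OGT-KO. After 7 days Igfbp1 was 1.90-fold lower than with no recovery in control liver, which was not called, and 2.09-fold lower in liver labelled OGT-KO, a call at -1.05 that was lost with a pseudocount of 10 (-0.99) and with median-ratio scaling (-0.98).

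Of 20 FOXO targets listed outside the 10 genes, 19 were compared. With no recovery 6 were called higher and 1 lower, and after 7 days 8 higher and 0 lower, with the same 6 higher in both arms. The background of genes called higher was 24.4%, 22.9% and 19.2% in the same order, and the list's median difference was 0.53 and 0.59 against 0.51 and 0.48 for all genes. Besides Igfbp1 and Pdk4 the highest were Cdkn1a, the cell cycle inhibitor p21, with 10.9 and 191 CPM with no recovery and 5.86 and 93.1 CPM after 7 days, and Bcl2l11, which encodes the pro-apoptotic protein BIM, with 3.62 and 26.9 CPM with no recovery and 4.56 and 21.2 CPM after 7 days. Both have regulators other than FOXO factors. Gadd45a, a growth arrest gene, and Txnip, a glucose-responsive inhibitor of thioredoxin, made up the 6. The gene called lower was Klf15, a factor that favours amino acid use for glucose production, with 167 and 69.5 CPM with no recovery. Under median-ratio scaling 5 were higher and 6 lower with no recovery, and 4 and 6 after 7 days. Over all compared genes, that scaling gave 935 higher and 1381 lower with no recovery, and 1038 and 1055 after 7 days. At the deposited scaling these counts were 2185 and 510, then 2050 and 383.

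Among the other steps of gluconeogenesis, some enzymes that carry out the same reaction in different compartments or cell types differed in opposite directions. Pck2, the mitochondrial counterpart of Pck1, had 3.90 CPM in control and 15.9 in liver labelled OGT-KO with no recovery, 4.07-fold higher (3.20 to 5.23), and 3.91 and 22.1 CPM after 7 days, 5.65-fold higher (4.44 to 7.27). Its reads stayed a small part of those of Pck1, at 0.00142 and 0.0108 reads per read of Pck1 with no recovery and 0.00255 and 0.0252 after 7 days. G6pc3, the glucose-6-phosphatase found in most tissues, had 7.62 and 22.2 CPM with no recovery and 7.91 and 18.2 CPM after 7 days. Reads of G6pc3 per read of G6pc therefore went from 0.0239 in control to 0.367 (0.331 to 0.406) in liver labelled OGT-KO with no recovery and were 0.0506 and 0.220 after 7 days.

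Malate dehydrogenase, which moves reducing equivalents and carbon between mitochondria and cytosol, showed the same split. The cytosolic Mdh1 had 416 CPM in control and 76.1 in liver labelled OGT-KO with no recovery, 5.47-fold lower (5.19 to 5.76), a size close to that of G6pc, and 422 and 202 CPM after 7 days, 2.09-fold lower (2.01 to 2.16). The mitochondrial Mdh2 had 203 and 419.6 CPM with no recovery and 185 and 439 CPM after 7 days, 2.07-fold (1.99 to 2.14) and 2.38-fold (2.29 to 2.47) higher. Over the 30 listed genes of other steps and transporters, 28 were compared, of which 5 were called higher and 2 lower with no recovery and 4 higher and 1 lower after 7 days, against backgrounds of 24.4% higher and 5.69% lower, then 22.9% and 4.27%. The median difference was 0.06 and 0.26, below that of all genes and above the -1.14 and -0.81 of the 5 genes of glucose production. Under median-ratio scaling 1 was higher in each arm, and 9 (no recovery) and 5 (7 days) lower. The background at that scaling was 935 genes higher and 1381 lower with no recovery, and 1038 and 1055 after 7 days.

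No compared regulator of gluconeogenesis on the glucagon and transcription factor side was called higher. Of 31 listed genes, 27 were compared, of which 0 were called higher and 6 lower with no recovery (Onecut1, Nr0b2, Foxa1, Hnf4a, Ppara and Gcgr), and 0 higher and 3 lower after 7 days (Onecut1, Gcgr and Cebpa). The backgrounds were 24.4% higher and 5.69% lower with no recovery and 22.9% and 4.27% after 7 days. The medians were -0.03 and -0.06. Under median-ratio scaling 0 were higher in either arm, 12 (no recovery) and 10 (7 days) were lower, and the medians were -0.73 and -0.74. All compared genes at that scaling gave 935 higher and 1381 lower with no recovery, and 1038 and 1055 after 7 days. Nr4a1 and Pde4d, with means under 10 CPM, were not compared but stood higher under the label OGT-KO. Nr4a1 had 4.37 CPM in control and 13.3 in liver labelled OGT-KO with no recovery, and 0.951 and 6.43 CPM after 7 days. Pde4d had 3.20 and 9.93, then 2.10 and 14.2 CPM. Ppargc1b, also under 10 CPM, had 4.85 and 4.20, then 3.71 and 4.39 CPM. Gcgr, the glucagon receptor, had 287 CPM in control and 141 in liver labelled OGT-KO with no recovery, 2.04-fold lower (1.95 to 2.12), and 290 and 134 CPM after 7 days, 2.16-fold lower (2.07 to 2.26). Hnf4a, a factor that sustains hepatocyte genes and drives G6pc and Pck1, had 851 and 335 CPM with no recovery, 2.54-fold lower (2.47 to 2.61), and 864 and 458 CPM after 7 days, 1.89-fold lower (1.84 to 1.93) and not called. Onecut1, a factor of hepatocyte and bile duct development, had 40.9 and 11.2 CPM with no recovery and 50.4 and 16.0 CPM after 7 days. Nr0b2, a repressor induced by bile acids, had 34.3 and 10.7 CPM with no recovery and 26.9 and 15.9 CPM after 7 days, and Ppara, the fatty acid receptor of fasting, had 59.8 and 23.5, then 58.2 and 30.2 CPM.

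In the insulin pathway 22 of 23 listed genes were compared, with 2 called higher and 1 lower with no recovery, 3 higher and 1 lower after 7 days, and medians of 0.36 and 0.38. The backgrounds were 24.4% higher and 5.69% lower, then 22.9% and 4.27%. Trib3, a pseudokinase that binds AKT and is also a stress gene, had 5.36 and 97.3 CPM with no recovery, 18.1-fold higher (15.0 to 22.1), and 6.21 and 38.1 CPM after 7 days, 6.13-fold higher (5.07 to 7.46). Grb10, an adaptor that inhibits the insulin receptor, had 7.29 and 26.8 CPM with no recovery and 6.31 and 56.8 CPM after 7 days, 3.67-fold (3.07 to 4.41) and 9.00-fold (7.49 to 10.9) higher. Ceacam1, which promotes insulin clearance by hepatocytes, had 150.4 and 61.2 CPM with no recovery and 157 and 77.9 CPM after 7 days, 2.46-fold (2.31 to 2.62) and 2.01-fold (1.90 to 2.14) lower. Inppl1, a lipid phosphatase that opposes the pathway, had 54.0 and 97.6 CPM with no recovery, which was not called, and 47.7 and 100.4 CPM after 7 days. Under median-ratio scaling 2 were higher in each arm, and 3 (no recovery) and 1 (7 days) lower. Beside them, 935 of all compared genes were higher and 1381 lower with no recovery, and 1038 and 1055 after 7 days.

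Genes of glucose use belong to the opposing route. Of 18 listed genes of glucose uptake, glycolysis and glycogen, 17 were compared, with 5 called higher and 6 lower with no recovery, 4 and 6 after 7 days, and medians of 0.10 and -0.04, against the same backgrounds of 24.4% higher and 5.69% lower, then 22.9% and 4.27%. Pklr, the liver pyruvate kinase, had 146 CPM in control and 16.8 in liver labelled OGT-KO with no recovery, 8.64-fold lower (7.77 to 9.64), and 257 and 45.7 CPM after 7 days, 5.62-fold lower (5.26 to 6.02). Pkm, the pyruvate kinase of most other cells, had 14.6 and 125 CPM with no recovery and 11.3 and 97.8 CPM after 7 days, and Pfkp, the platelet form of phosphofructokinase, had 6.16 and 23.1, then 6.36 and 33.6 CPM. Among these 3, the form typical of hepatocytes was lower and those of other cells higher, beside the bile duct, stellate and macrophage marker sums given above, whose part in these values was not tested. Pfkl, the liver form of phosphofructokinase, was not lower at the deposited scaling. It had 42.2 and 45.4 CPM with no recovery and 34.9 and 48.4 CPM after 7 days. Under median-ratio scaling 3 were higher and 8 lower in each arm. Among all compared genes that scaling gave 935 higher and 1381 lower with no recovery, and 1038 and 1055 after 7 days. Apart from Pfkl, for which other settings were not examined, the compared genes given with CPM values from these lists kept their direction between the labels. This held under the other pseudocounts and scalings.

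**Figure D5:**
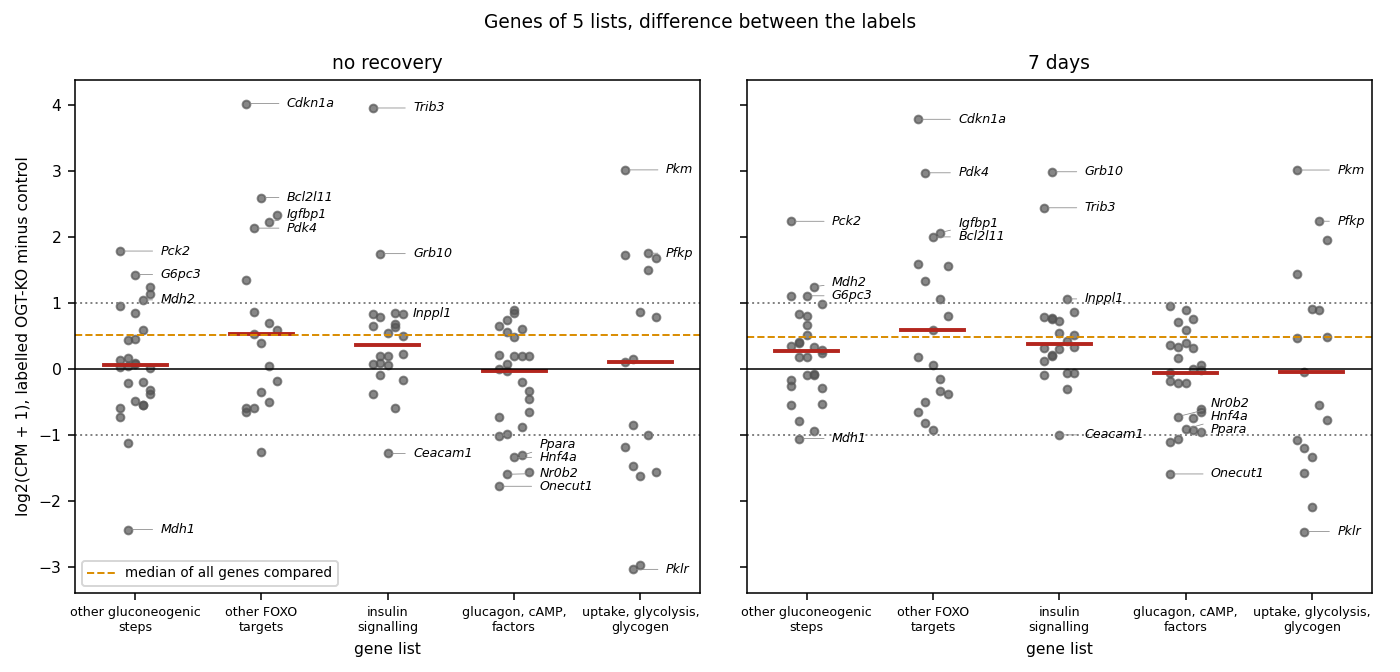
Difference of log2(CPM + 1), labelled OGT-KO minus control, for each compared gene of 5 lists, with no recovery (left) and after 7 days (right). Red bars are list medians, the dashed line is the median of all compared genes (0.51 and 0.48) and dotted lines mark 2-fold. Pck2, G6pc3 and Mdh2 lie above and Mdh1 below 2-fold in both panels. No compared gene of the glucagon and factor list lies above 2-fold. These positions are at the deposited scaling. List medians above 0 fall below 0 under median-ratio scaling.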

How the data were processed

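RNA of 4 liver libraries was sequenced, 1 for each condition, each from pooled RNA of 3 mice. The authors deposited CPM values, reads scaled so that each library sums to 1000000, and the submitters' processing notes name STAR, DESeq2 and GRCm39 without giving their roles. How reads were counted, and whether by strand, is not given in the sources used here. In every library 100.0% of values were whole multiples of the value of 1 read (tolerance 0.01), so whole reads were recovered, 19972699 to 22866431 a library.

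The 10 genes, the 5 lists and the markers were chosen with earlier results of these data known. Genes averaging 10 CPM or more over the libraries were compared on log2(CPM + 1), which understates changes of low genes, and called at 2-fold. With 1 library per condition no p-value was computed for a condition. Counting intervals are 95% exact Poisson intervals for a level and exact conditional binomial intervals for a ratio of reads. An exact binomial test on reads, which compares libraries and not conditions, called 6245 genes higher and 1771 lower with no recovery, and 6402 and 1502 after 7 days (adjusted p under 0.05).

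Besides the 10 genes and Igfbp1, Pdk4, Gcgr, Hnf4a and Ogt, the text names the 4 compared genes of each list with the largest mean difference between the labels, and the 3 nearest profiles of a gene called in both arms. A gene under this rule is not reported here. Klf15, Gadd45a, Txnip, Foxa1 and Cebpa, which complete counts of calls, were chosen after their values were seen. So were Pfkl, the single markers given with CPM values, and the pairs of genes in ratios within a library. The same holds for Nr4a1, Pde4d and Ppargc1b, which had means below 10 CPM. Transcript lengths came from GENCODE M21 (GRCm38) by gene identifier and promoters from RefSeq (GRCm38.p6). A planned comparison of FOXO protein sequences was not run. On simulated reads for the no-recovery comparison, with 200 of 13903 genes changed 4-fold, 200 were called, as were 0 of 8757 unchanged genes. The changed genes were drawn from those well above the filter, and only counting noise was simulated. The result therefore checks the steps and says nothing of differences between mice. Python 3.11.15 (numpy 2.4.6, pandas 2.3.3, scipy 1.17.1) and R 4.3.3 with edgeR 4.0.16 (TMM factors) were used. The alternatives tried were pseudocounts of 0.1 and 10, median-ratio and TMM scaling, dropping the filter or raising it to 50 CPM, and adding the binomial test to the 2-fold limit.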

Additional observations from a re-analysis of the deposited data

Results flagged for a closer look

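G6pc and Fbp1 were picked out because recovery took them in opposite directions under the 2 labels. G6pc differed between 7 days and no recovery by -1.02 on the log2 scale in control liver and by 0.45 in liver labelled OGT-KO, 1.47 apart, and Fbp1 by -0.15 and 0.91, 1.06 apart. In the same way Slc37a4 differed by 0.18 and -0.14, which gives -0.32, and Pdk4 by -0.55 and 0.29, which gives 0.84. Each group was 1 library and these differences were not tested. For Slc37a4 both differences are small beside the 2-fold limit, as is that of Fbp1 in control liver.

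Ogt was picked out because its difference between the labels was -0.22 with no recovery and 0.47 after 7 days, 0.70 apart. Equivalently, it differed between the arms by -0.21 in control liver and 0.48 in liver labelled OGT-KO. This was not tested either, and with median-ratio scaling the differences between the labels were -0.93 and -0.20, both below 0.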

How the results depend on the processing

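No paired analysis was possible because the labels carry no replicate numbers, and with 1 library per condition none could be left out. A fit with the recovery arm as a block, which would leave 1 residual degree of freedom, was not run. No call was reversed, the 5 genes of glucose production kept their direction between the labels under all 7 alternatives, and 919 of 936 recomputed gene differences kept their sign. The exceptions between the labels were Foxo1, Foxo3, Irs2, Insr and Ogt, given above with the scalings, which also shifted the median gene. Of 392 recomputed counts 315 stayed within 1.5 times.

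For labelled OGT-KO minus control with no recovery, 2185 genes were higher, against 1367 with a pseudocount of 10, 4595 with no filter, 525 with a mean of at least 50 CPM, 935 with median-ratio and 1001 with TMM scaling, and 510 were lower, against 1381 and 1272 with these scalings. After 7 days 2050 were higher, against 1344, 4492, 503, 1038 and 1041 in the same order, and 383 lower, against 1055 and 1044. Of the 10 genes, 1 was lower after 7 days, against 5 with either scaling.

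For recovery in control liver, 22 genes were higher, against 35 with a pseudocount of 0.1, 12 with one of 10 and 11 with a mean of at least 50 CPM, and 86 lower, against 130, 21 and 31, and 134 with no filter. The single call of G6pc became 0 with a pseudocount of 10 and with either scaling. For recovery in liver labelled OGT-KO, 93 were higher, against 39 with a pseudocount of 10, 178 with no filter and 40 with a mean of at least 50 CPM, and 39 lower, against 18, 110 and 14. Causes were not tested. Counting intervals cover counting error only, and 1 pool of 3 mice per condition gives no replicate error.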
